A study of Mus musculus with 30 samples.

Results

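Calcium handling by the sarcoplasmic reticulum was followed through 10 genes, chosen by their symbols from a deposited count table of 55487 mouse gene identifiers, and all 10 were matched and passed the filter on low counts in both cohorts. The series holds RNA sequencing of 30 mouse hearts, taken 8 weeks after sham surgery or after transverse aortic constriction (TAC), in which a clip narrows the aorta and raises the pressure the heart works against. The study asked what Cpt1a, which encodes an enzyme for the entry of long-chain fatty acids into mitochondria, does in the loaded heart. A floxed cohort has 4 groups of 4 hearts. FF_sham and FF_TAC are CPT1a floxed controls, and KO_sham and KO_TAC are labelled as cardiac specific CPT1a knockout, for which the series description speaks of knockdown. An AAV9 cohort of C57Bl/6 mice has PBS_sham and PBS_TAC (3 hearts each, injected with saline) and AAV_sham and AAV_TAC (4 each, injected with an AAV9 virus that carries Cpt1a behind the cardiac troponin T promoter, which is active in heart muscle cells). The driver of the cardiac deletion and the ages of the mice are not given in the sources used here. Clips of 0.016 or 0.018 inch were used, without a record of which mouse had which, and the titles of the KO_TAC samples name sham as well as TAC, so that their group rests on the genotype and treatment labels.

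In a heart muscle cell, calcium that enters through the L-type channel of the surface membrane opens the ryanodine receptor of the sarcoplasmic reticulum, and the calcium released from this store drives contraction. Relaxation follows when the pump SERCA2a returns calcium to the store and the sodium-calcium exchanger moves the rest out of the cell. Phospholamban and sarcolipin are small membrane proteins that restrain the pump, DWORF is a small protein that relieves this restraint, and a lower ratio of pump to phospholamban is a known feature of failing hearts.

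Levels are in CPM (counts relative to the library total, with TMM scaling within each cohort). Comparisons used edgeR's quasi-likelihood test, and genes with a Benjamini-Hochberg adjusted p under 0.05, over all genes tested, are named as called. Coordinates are in GRCm38.

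Several libraries need to be known before the results. Cpt1a, the targeted gene, had 37.8 to 52.7 CPM in FF_sham and 11.1 to 19.6 in KO_TAC. It went against the genotype in the library labelled KO_sham 2, at 46.3 CPM against 20.3 to 23.7 in the other KO_sham libraries, and in the libraries labelled FF_TAC 2 and FF_TAC 3, at 20.3 and 16.2 CPM against 48.9 and 34.0 in the other FF_TAC libraries. These 3 libraries and all 4 of KO_TAC also held under 100 CPM of summed haemoglobin transcripts (1.40 to 51.1, against 294 to 943 in the other 23). In the AAV9 cohort Cpt1a was at 37.4 to 68.0 CPM in PBS_sham and 56.3 to 88.4 in AAV_sham. After TAC it was at 40.3 to 61.6 CPM in PBS_TAC and 44.8 to 62.7 in AAV_TAC, so saline and virus overlapped after both surgeries. After sham the overlap rested on PBS_sham 3 alone, at 68.0 CPM. PBS_sham 1 and PBS_sham 2, at 37.4 and 50.8 CPM, lay below every AAV_sham heart. The library PBS_sham 3 had a summed level of 7 cardiomyocyte markers of 38322 CPM, against 54838 or more in every other library, and 5 endothelial markers summed to 2078 CPM there. Total counts per library lay between 14839758 and 22070373. Cardiomyocyte markers were high in every heart. In RNA from whole tissue, fewer cells of a type and less RNA per cell cannot be told apart.

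Of the 10 genes, 3 fell and 1 rose in KO_TAC against KO_sham, and 3 fell and none rose in KO_TAC against FF_TAC. The fallen genes were Atp2a2 and Pln in both comparisons, Ryr2 in the former and Jph2 in the latter, and the gene that rose was Casq2. Over all 15596 genes tested, 25.8% were called in KO_TAC against KO_sham (11.5% lower, 14.3% higher) and 14.3% in KO_TAC against FF_TAC (6.8% lower, 7.53% higher), so calls were common in these comparisons. The median log2 fold change of the 10 genes was -0.14 in the former, against 0.02 over all genes, and -0.12 in the latter, against 0.04. Groups did not overlap for 3 of the 10 genes in KO_TAC against KO_sham (23.1% of all genes) and for 2 in KO_TAC against FF_TAC (13.5%). Both comparisons share the KO_TAC libraries, so they are not independent of each other.

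The upstream sequences of Pln, Casq2 and DWORF (symbol Strit1) are shown because these genes for the pump's regulators and the store's buffer moved in different directions in the KO_TAC hearts. Each runs from 250 bases before to 50 after the gene's start in RefSeq, assembly GRCm38.p6, on the gene's own strand. They lie at chr10:53337436-53337735 (plus), chr3:102086165-102086464 (plus) and chr3:63483857-63484156 (minus). Capitals mark the E-box CANNTG, a motif that reads as itself on the other strand.
Pln: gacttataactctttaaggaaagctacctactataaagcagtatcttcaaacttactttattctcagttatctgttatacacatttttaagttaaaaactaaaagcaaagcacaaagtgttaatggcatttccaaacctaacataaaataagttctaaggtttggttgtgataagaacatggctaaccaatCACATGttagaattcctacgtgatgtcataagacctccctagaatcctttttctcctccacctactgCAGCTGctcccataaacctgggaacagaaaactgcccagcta
Casq2: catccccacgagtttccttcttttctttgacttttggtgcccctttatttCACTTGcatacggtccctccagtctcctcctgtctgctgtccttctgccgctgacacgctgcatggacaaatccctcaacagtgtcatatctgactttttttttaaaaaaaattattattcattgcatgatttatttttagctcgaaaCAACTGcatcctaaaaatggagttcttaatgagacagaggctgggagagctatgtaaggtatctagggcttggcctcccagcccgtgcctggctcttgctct
Strit1: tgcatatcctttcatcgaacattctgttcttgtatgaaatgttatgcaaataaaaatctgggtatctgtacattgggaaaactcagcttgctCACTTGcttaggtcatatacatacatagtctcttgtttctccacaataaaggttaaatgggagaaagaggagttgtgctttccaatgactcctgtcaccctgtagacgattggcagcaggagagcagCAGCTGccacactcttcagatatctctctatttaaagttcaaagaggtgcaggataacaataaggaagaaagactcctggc
Each of the 3 holds 2 matches, and 72.3% of the 32851 promoters of this length hold at least 1. Promoters were found for 7 of the 10 genes. A match is a run of letters, and binding was not measured.

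Atp2a2 (ENSMUSG00000029467, chr5:122453513-122502225, minus strand) encodes the SERCA2 pump. Its level was 12125, 14861, 12060.4 and 14924 CPM in FF_sham 1 to 4, and 14207, 9708, 10478 and 12221 in FF_TAC 1 to 4. It was 12014, 15126, 11642 and 11162 in KO_sham 1 to 4 but 10459, 4080.1, 4529.7 and 7805 in KO_TAC 1 to 4. Every KO_TAC heart lay below every KO_sham heart, while KO_TAC 1 lay within the range of FF_TAC. The log2 fold change of KO_TAC was -0.89 (SE 0.24, adjusted p = 0.0169, edgeR with Benjamini-Hochberg adjustment) against KO_sham, and -0.79 (SE 0.24, adjusted p = 0.0402) against FF_TAC. Without KO_TAC 3 the call against KO_sham was lost (-0.75, adjusted p = 0.0587, edgeR), and that against FF_TAC was lost without FF_TAC 1, FF_TAC 3, FF_TAC 4, KO_TAC 2 or KO_TAC 3 (-0.85 to -0.62). In FF_TAC against FF_sham the value was -0.21 (SE 0.24, adjusted p = 0.734). The interaction, which asks whether TAC acted differently in the knockout, was -0.68 (SE 0.34, adjusted p = 0.405, edgeR), so a difference between the genotypes in the response of Atp2a2 was not shown. An exon of Gm43361 overlaps Atp2a2 on the opposite strand, and the strand setting of the authors' counting is not given in the sources used here.

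Pln (ENSMUSG00000038583, chr10:53337667-53345987, plus strand) encodes phospholamban, the main restraint on the pump in the ventricle. Its level was 1849, 1441, 1634 and 1980.0 CPM in FF_sham, 1646, 1771, 1411 and 1496 in FF_TAC, and 1813, 1577, 1963 and 1652 in KO_sham. In KO_TAC it was 902, 1149, 1186 and 1215 CPM, below all 12 other hearts of the cohort. The log2 fold change of KO_TAC was -0.65 (SE 0.13, adjusted p = 0.00363, edgeR) against KO_sham and -0.51 (SE 0.13, adjusted p = 0.0158) against FF_TAC. The interaction was -0.53 (SE 0.18, unadjusted p = 0.00958, adjusted p = 0.218, edgeR). Exons of Cep85l and Gm47644 overlap Pln on the opposite strand.

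**Figure D1:**
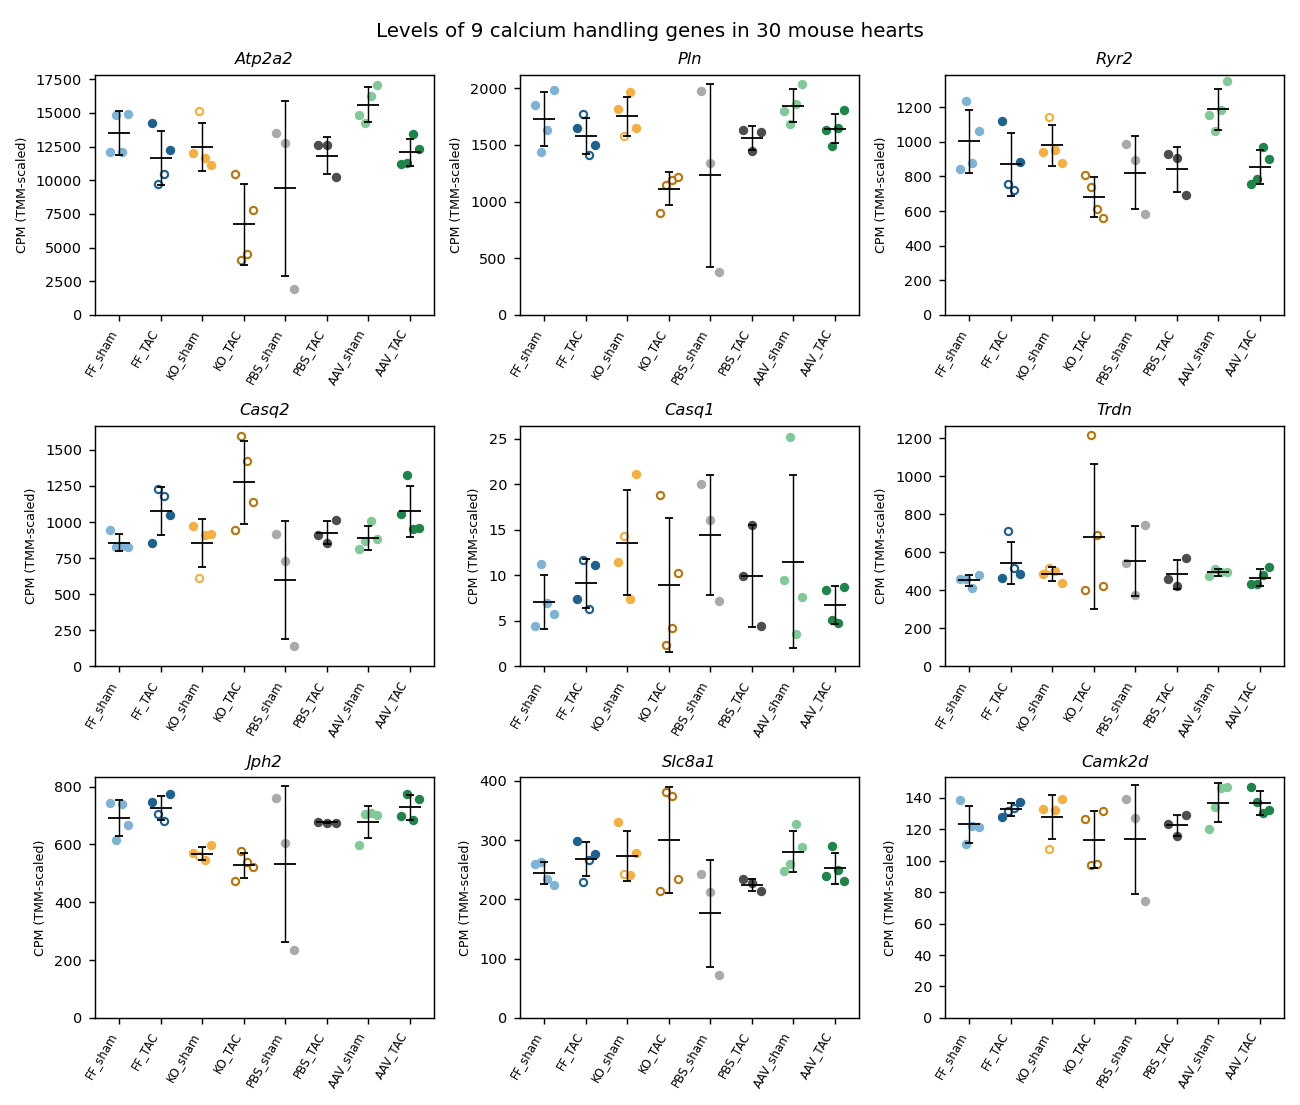
Levels (CPM, scaled by TMM within each cohort, linear axes from 0) of 9 of the 10 genes in the 8 groups, with 1 point per heart, open points for the 7 libraries with haemoglobin transcripts under 100 CPM, and black marks for the mean ± SD. Pln in the KO_TAC hearts, at 902 to 1215 CPM, lies below every other heart of the floxed cohort, and PBS_sham 3 lies at the bottom of its group for Atp2a2 (1907 CPM) and for Casq2 (141 CPM).

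The pump and its restraint fell unevenly among the KO_TAC hearts. Pln counts were 12.9% ± 2.33 (SD, n = 4) of Atp2a2 counts in FF_sham, 13.9% ± 3.01 in FF_TAC, 14.3% ± 2.73 in KO_sham and 19.6% ± 9.19 in KO_TAC. In KO_TAC 1 to 4 the values were 8.62%, 28.2%, 26.2% and 15.6%, so they reached below and above every heart of the other 3 groups. The lowest, KO_TAC 1, held 9386 CPM of summed atrial markers, against 31.0 to 39.1 in the other KO_TAC hearts. FF_sham 2 (9.70%), FF_TAC 1 (11.6%) and KO_sham 2 (10.4%) were likewise lowest in their groups and highest in atrial markers. This also held in every AAV9 group but AAV_sham. The part of atrial tissue in these shares was not tested. In the AAV9 cohort the share was 11.5% to 12.1% in AAV_sham and 12.3% to 14.7% in AAV_TAC, without overlap, and 11.4% to 15.8% in PBS_TAC. In PBS_sham it was 14.6%, 10.5% and 19.8%, the last in PBS_sham 3, a range that covers both virus groups. These shares are of counts, which depend on transcript length, and are given as a description without a test.

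Sln (ENSMUSG00000042045, chr9:53850164-53854560, plus strand) encodes sarcolipin, the pump inhibitor known from atria and skeletal muscle. It was at 0 to 0.181 CPM (0 to 3 counts) in 16 of the 30 hearts and at 8.60 to 1099 CPM (median 104) in the other 14. The same 14 hearts, and no others, held at least 10 CPM of Myl7, the atrial myosin light chain. In them the ratio of Sln to Myl7 counts ran from 0.205 to 0.43 (median 0.337). Such hearts were 2 of 4 in FF_sham, 1 of 4 in FF_TAC, 2 of 4 in KO_sham, 1 of 4 in KO_TAC, 3 of 3 in PBS_sham, 1 of 3 in PBS_TAC, 3 of 4 in AAV_sham and 1 of 4 in AAV_TAC. Sln was called in none of the 10 comparisons by edgeR, and its log2 fold change in KO_TAC against KO_sham, 1.63 (SE 2.60, adjusted p = 0.663), rested on KO_TAC 1 with 1099 CPM, without which it was -9.95. The summed level of 5 atrial markers in KO_TAC 1 was 9386 CPM against 31.0 to 39.1 in the other KO_TAC hearts.

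**Figure D2:**
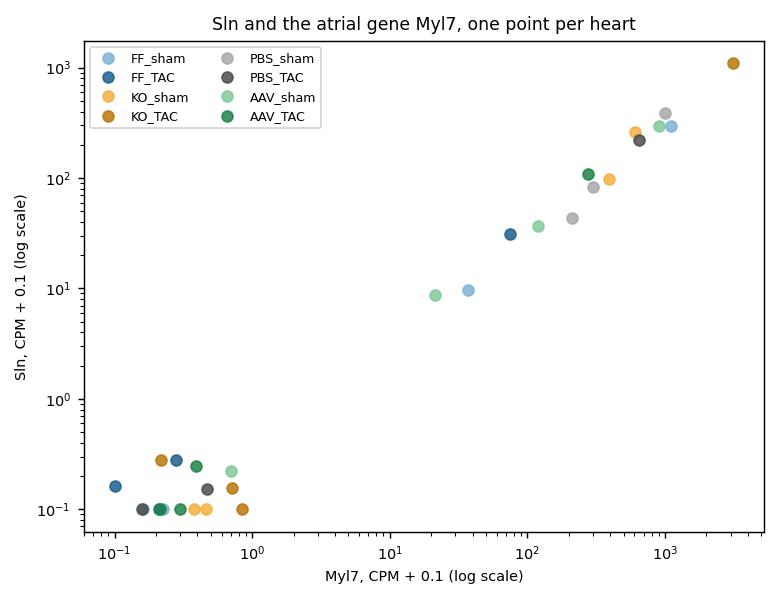
Sln (vertical axis) against the atrial gene Myl7 (horizontal axis), both as CPM + 0.1 on log scales, with 1 point per heart coloured by group. The 14 hearts with Myl7 of at least 10 CPM lie on a rising line that holds members of all 8 groups, and the 16 others lie in the lower left corner with Sln at or under 0.181 CPM.

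The genes most like Sln by the smaller of its Pearson correlations in the floxed cohort (16 hearts) and the AAV9 cohort (14 hearts), among 10325 genes compared on log2 CPM, were Myl4 (0.98 and 0.99), Myl7 (0.98 and 0.997), Mybphl (0.99 and 0.98), Tmem163 (0.97 and 0.97) and Cilp2 (0.94 and 0.95). Myl4 and Myl7 encode atrial myosin light chains. For Atp2a2 they were Mut (0.98 and 0.99), Gm30970 (0.97 and 0.99), Pdha1 (0.97 and 0.99), Gid4 (0.97 and 0.98) and Tarsl2 (0.96 and 0.97). Mut encodes methylmalonyl-CoA mutase and Pdha1 a subunit of pyruvate dehydrogenase, both enzymes of the mitochondrion. Without PBS_sham 3 the AAV9 correlations with Atp2a2 were 0.89 for Mut and Gm30970, 0.81 for Pdha1, 0.79 for Gid4 and 0.44 for Tarsl2. These correlations describe hearts that share libraries, depth and group differences.

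Ryr2 (ENSMUSG00000021313, chr13:11553102-12106945, minus strand) encodes the cardiac ryanodine receptor, the release channel of the store. It was at 844, 1236, 876 and 1062 CPM in FF_sham, 1119, 755, 721 and 884 in FF_TAC, 940.2, 1146, 953 and 878 in KO_sham, and 809.5, 739, 609.8 and 558 in KO_TAC. All KO_TAC hearts lay below all KO_sham hearts and overlapped FF_TAC. Ryr2 changed on the log2 scale by -0.53 (SE 0.17, adjusted p = 0.0316, edgeR) against KO_sham and -0.36 (SE 0.17, adjusted p = 0.158) against FF_TAC. The call against KO_sham was lost without KO_sham 1, KO_sham 2, KO_sham 3, KO_TAC 3 or KO_TAC 4, and without the library labelled KO_sham 2 the value was -0.45 (adjusted p = 0.0817, edgeR).

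Casq2 (ENSMUSG00000027861, chr3:102086415-102146514, plus strand) encodes cardiac calsequestrin, which buffers calcium inside the store beside the release channel. It was at 945, 828, 833 and 824 CPM in FF_sham, 858, 1231, 1182 and 1047 in FF_TAC, 974, 609, 911 and 920.3 in KO_sham, and 946, 1593, 1423 and 1141 in KO_TAC. KO_TAC 1 lay within the range of KO_sham and the other 3 above it. On the log2 scale the difference was 0.58 (SE 0.17, adjusted p = 0.0255, edgeR) against KO_sham and 0.24 (SE 0.17, adjusted p = 0.359) against FF_TAC. In FF_TAC against FF_sham it was 0.33 (SE 0.17, adjusted p = 0.487, edgeR). Without the library labelled KO_sham 2, the lowest of its group, the call was lost (0.44, adjusted p = 0.0687, edgeR), as it was without KO_TAC 2 (0.45) or KO_TAC 3 (0.52).

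Since Casq2 rose where Ryr2 fell, Casq2 counts were also set against Ryr2 counts in each heart. They were 53.1% to 105% of Ryr2 counts in KO_sham and 117% to 233% in KO_TAC, without overlap. They were 65.3% to 84.7% in AAV_sham and 98.3% to 169% in AAV_TAC, again without overlap, and 67.0% to 112% in FF_sham against 76.6% to 164% in FF_TAC, which overlap. In PBS_sham they were 24.2% to 93.3%, the lowest in PBS_sham 3, and in PBS_TAC 94.6% to 146%, without overlap as well. This ratio was chosen after its parts were seen and is given without a test.

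Jph2 (ENSMUSG00000017817, chr2:163336242-163397993, minus strand) encodes junctophilin 2, which ties the store to the surface membrane at the release sites. It was at 745, 615, 739 and 666 CPM in FF_sham and 746, 704, 682 and 776 in FF_TAC, but at 571, 559, 546 and 598 in KO_sham and 472, 577, 539.9 and 520.3 in KO_TAC. All 8 hearts labelled knockout lay below all 8 floxed controls, after sham and after TAC, and the library labelled KO_sham 2 was among the low ones while those labelled FF_TAC 2 and FF_TAC 3 were among the high ones. Of all genes tested in the floxed cohort, 0.314% (49) separated the genotypes in all 16 hearts in this way, and Jph2 was the only one of the 10 genes to do so. Its log2 fold change was -0.46 (SE 0.09, adjusted p = 0.0046, edgeR) in KO_TAC against FF_TAC. In KO_sham against FF_sham it was -0.28 (SE 0.09, unadjusted p = 0.00728, adjusted p = 0.9, edgeR), and in KO_TAC against KO_sham -0.11 (SE 0.09, adjusted p = 0.387). No gene was called in KO_sham against FF_sham by edgeR (0% of 15596, with 814 at an unadjusted p under 0.05, and 3 called by DESeq2, none of them among the 10), and groups did not overlap for 6.77% of all genes in that comparison, with Jph2 the 1 of the 10.

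**Figure D3:**
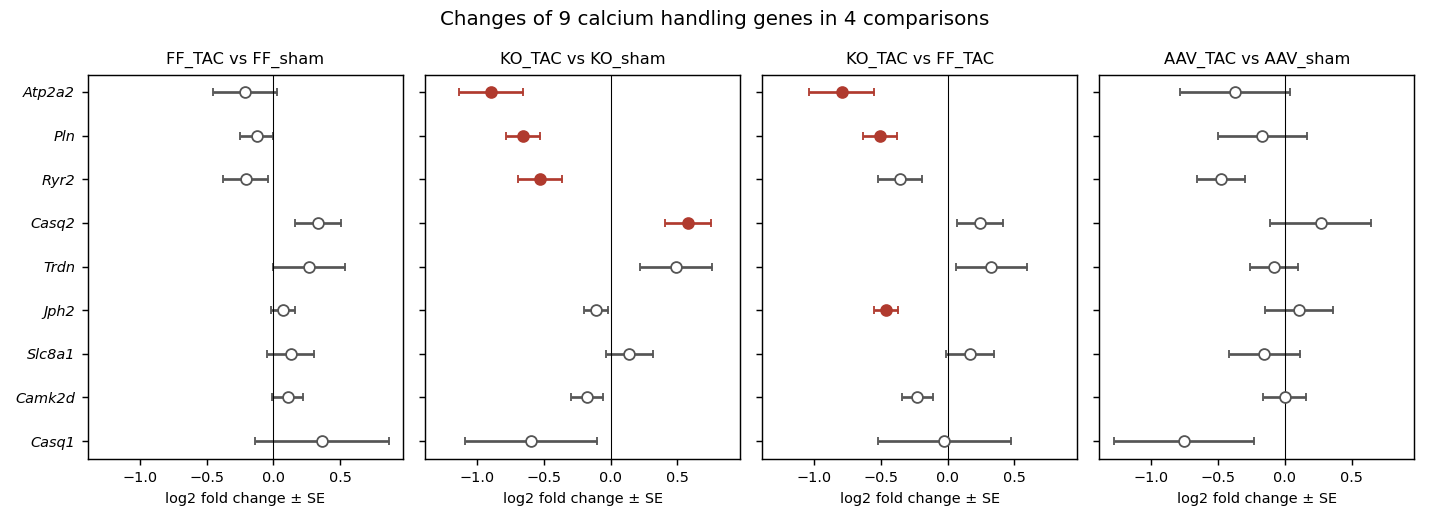
Log2 fold change ± SE (edgeR) of 9 of the 10 genes in 4 comparisons, with the group named first higher to the right of the line at 0 and filled red points for called genes. Atp2a2 and Pln are called in both comparisons that hold KO_TAC, at -0.89 and -0.65 against KO_sham and -0.79 and -0.51 against FF_TAC, and none is called in FF_TAC against FF_sham or AAV_TAC against AAV_sham.

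Trdn (ENSMUSG00000019787, chr10:33080554-33476709, plus strand) encodes triadin, which anchors calsequestrin to the release channel. It was at 402, 1219.9, 690.0 and 421 CPM in KO_TAC against 437 to 516 in KO_sham and 463 to 711 in FF_TAC, so that KO_TAC 2 stood above every other heart and KO_TAC 1 and 4 below every heart of both groups. Its log2 fold change against KO_sham was 0.49 (SE 0.27, adjusted p = 0.181, edgeR), and among the alternatives run it was called only without KO_TAC 1 (0.66, adjusted p = 0.0432). Slc8a1 (ENSMUSG00000054640, chr17:81373105-81738377, minus strand), the sodium-calcium exchanger, was at 214, 381, 375 and 234 CPM in KO_TAC and at 225 to 331 in the other 12 floxed-cohort hearts. Its log2 fold change against KO_sham was 0.14 (SE 0.18, adjusted p = 0.576, edgeR). Exons of AC122399.1 and Gm11096 overlap it on the opposite strand. In KO_TAC 2 and 3, where Trdn and Slc8a1 had their highest levels in the group, Atp2a2 had its lowest.

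Camk2d (ENSMUSG00000053819, chr3:126596302-126846326, plus strand) encodes the main cardiac calcium/calmodulin-dependent kinase, which phosphorylates Ryr2 and phospholamban. Its levels ran from 97.3 to 139 CPM over the 16 floxed-cohort hearts, and from 116 to 147 in the AAV9 cohort but for PBS_sham 3 at 74.3. Its log2 fold change in KO_TAC was -0.17 (SE 0.12, adjusted p = 0.281, edgeR) against KO_sham and -0.23 (SE 0.12, adjusted p = 0.207) against FF_TAC. Casq1 (ENSMUSG00000007122, chr1:172209894-172219868, minus strand) encodes the calsequestrin of skeletal muscle and was at 2.40 to 25.2 CPM over the 30 hearts. Its exons overlap Gm17224 on the opposite strand, and 10 skeletal muscle markers summed to 2.6 to 25.1 CPM. Without KO_TAC 1, Casq1 was called in KO_TAC against KO_sham (-1.26, adjusted p = 0.0405, edgeR), where all libraries gave -0.60 (SE 0.49, adjusted p = 0.381). Per kilobase of exon, Casq1 reached 3.63 CPM in FF_sham on average against 313 for Casq2. On the same scale in FF_sham, Atp2a2 had 2219, Pln 626, Jph2 162, Trdn 48.5, Ryr2 34.9 and Camk2d 5.48 CPM per kilobase.

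The floxed controls and the saline-injected mice gave no call among the 10 genes after TAC. In FF_TAC against FF_sham 0 of 10 were called, as were 0% of all genes, and groups overlapped for all 10 (6.03% of all genes did not overlap). None of the 10 reached an unadjusted p under 0.05 by edgeR, and DESeq2 called 0 of the 10. Over all genes, 1733 had an unadjusted p under 0.05 by edgeR and 168 were called by DESeq2. In PBS_TAC against PBS_sham 0 of 10 were called (0.0318% of all genes), 0 had an unadjusted p under 0.05 by edgeR, DESeq2 called 0, and groups overlapped for all 10 (14.7% of all genes did not). PBS_sham 3 sets the sign there for genes that include Atp2a2 and Pln. It was also lowest of its group for Ryr2 (585 CPM, against 986 and 893) and Jph2 (235, against 762 and 604). The same held for Slc8a1 (73.0, against 244 and 213) and Camk2d (74.3, against 139 and 127). For Trdn it was highest (743, against 546 and 377). In that order, the PBS_TAC means of these genes were 842, 677, 225, 123 and 485 CPM. Atp2a2 was at 13531, 12748 and 1907 CPM in PBS_sham and 12602, 12604 and 10232 in PBS_TAC, with a log2 fold change of 0.33 (SE 0.48) that became -0.15 (SE 0.12) without PBS_sham 3, and Pln went from 0.34 to -0.08.

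With the Cpt1a virus, Atp2a2 and Ryr2 were lower after TAC in every heart, but neither was called. Atp2a2 was at 14842, 14263, 16274 and 17081 CPM in AAV_sham and 11223, 11292, 13396 and 12311 in AAV_TAC. Ryr2 was at 1157, 1063, 1186 and 1349 CPM in AAV_sham and 759, 785, 969 and 901 in AAV_TAC. Groups did not overlap for these 2 of the 10 genes, against 10.7% of all genes. The log2 fold changes were -0.37 (SE 0.41, adjusted p = 0.964, edgeR) for Atp2a2 and -0.48 (SE 0.18, unadjusted p = 0.0188, adjusted p = 0.569) for Ryr2. PBS_sham 3 widens the spread shared by the 4 groups: without it the SEs were 0.09 and 0.11 and the adjusted p-values 0.0746 for Atp2a2 and 0.0654 for Ryr2 by edgeR, still above the threshold. In all, 0 of 10 were called in AAV_TAC against AAV_sham (0.00635% of all genes), 1 had an unadjusted p under 0.05, and DESeq2 called 0.

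Between virus and saline, 0 of the 10 genes were called after sham (0.0127% of all genes) or after TAC (0.0381%). After sham, 2 had an unadjusted p under 0.05 by edgeR, DESeq2 called 0, and groups did not overlap for 3 of 10, Atp2a2, Ryr2 and Slc8a1, all higher in AAV_sham (10.9% of all genes). The log2 fold change of Atp2a2 was 0.73 (SE 0.45), and 0.25 (SE 0.11) without PBS_sham 3. After TAC, 0 had an unadjusted p under 0.05, DESeq2 called 0, and groups did not overlap for Jph2 and Camk2d (8.47% of all genes), with log2 fold changes of 0.11 (SE 0.28) and 0.16 (SE 0.17). Neither interaction gave a call among the 10, where 0.0449% of all genes were called for knockout and TAC and 0.00635% for virus and TAC. By edgeR 1 of the 10 (Pln) and 0 of the 10 had an unadjusted p under 0.05 in these interactions, and DESeq2 called 0 in each.

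The wider pathway was read through 70 other calcium handling genes, of which 69 were found in the table with 66 of them tested among the floxed mice and 67 among the injected mice. In KO_TAC against KO_sham 15 of 66 rose and 12 fell, where 14.3% of all genes rose and 11.5% fell. In KO_TAC against FF_TAC 7 of 66 rose and 10 fell, where 7.53% of all genes rose and 6.8% fell. In the other 8 comparisons 0 were called by edgeR, with 0 to 11 of them at an unadjusted p under 0.05 and 0 to 2 called by DESeq2. The 11 were of 67 in AAV_TAC against AAV_sham, where 1110 of all 15745 genes tested had such a p by edgeR. Groups did not overlap there for 17 of the 67, against 10.7% of all genes. In AAV_sham against PBS_sham 10 of 67 had such a p, where 3262 of all 15745 did. The median log2 fold change of the list in KO_TAC was 0.01 against KO_sham and 0.02 against FF_TAC, close to 0.02 and 0.04 over all genes. In KO_TAC against KO_sham, 4 of 18 pump regulators and relatives rose and 2 fell, and 6 of 25 genes of the release unit rose and 6 fell. Hrc, a calcium-binding protein of the store that fell, was counted in the release unit. Of 7 genes listed as store buffers (Calr, Calu, Canx, Sypl2, Srl, Hspa5 and the chaperone Pdia3), 4 rose and 0 fell. Of 16 genes for exchange and kinases, 1 rose and 4 fell. Each count is to be read against those shares of all genes.

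Strit1 (ENSMUSG00000103476, chr3:63481112-63483879, minus strand), listed in the table's annotation as Gm34302 and matched through its RefSeq synonym, encodes DWORF, the pump activator. Its level was 16.9, 16.4, 8.03 and 8.20 CPM in FF_sham, 13.8, 20.7, 15.3 and 19.6 in FF_TAC, 14.8, 12.0, 7.34 and 6.53 in KO_sham, and 1.58, 3.75, 2.39 and 2.80 in KO_TAC. All KO_TAC hearts lay below the other 12, on 32 to 50 counts each against 125 to 354. The log2 fold change was -1.97 (SE 0.34, adjusted p = 0.00229, edgeR) against KO_sham and -2.73 (SE 0.35, adjusted p = 0.000488) against FF_TAC. The interaction was -2.45 (SE 0.46, adjusted p = 0.0681, edgeR), and -2.32 (adjusted p = 0.031) with KO_sham 2, FF_TAC 2 and FF_TAC 3 left out, the libraries whose Cpt1a level went against the label. Over the other alternatives run, the adjusted p of this interaction lay between 0.000186 (DESeq2) and 0.167 (edgeR without FF_TAC 4), so its call depended on the choice made. Strit1 counts were 0.175% to 0.327% of Pln counts in KO_TAC, 0.374% to 0.816% in KO_sham and 0.836% to 1.31% in FF_TAC. In AAV_TAC Strit1 was at 5.0, 7.83, 8.52 and 6.77 CPM against 11.5 to 17.7 in AAV_sham, without overlap, with a log2 fold change of -0.97 (SE 0.28, adjusted p = 0.33, edgeR) that had an adjusted p of 0.0628 without PBS_sham 3.

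Hrc (ENSMUSG00000038239, chr7:45335290-45338974, plus strand) encodes the histidine-rich calcium-binding protein of the store. It was at 951, 860.2, 654 and 983 CPM in KO_TAC, against 1313 to 1473 in KO_sham and 1369 to 1529 in FF_TAC, a log2 fold change of -0.69 (SE 0.12, adjusted p = 0.00186, edgeR) against KO_sham and -0.77 (SE 0.12, adjusted p = 0.00121) against FF_TAC. Strit1 and Hrc stayed called in both comparisons in each of 16 fits that left out 1 library of the floxed cohort, in or outside the groups compared. They also stayed called with a term for low haemoglobin transcripts. All 4 KO_TAC libraries are haemoglobin-low, so this term was estimated only from KO_sham 2, FF_TAC 2 and FF_TAC 3 against the other hearts of their groups. It assumes the same shift in KO_TAC, where haemoglobin state and group cannot be told apart. Among haemoglobin-low libraries alone, where 4 KO_TAC hearts meet 1 of KO_sham or 2 of FF_TAC, Strit1 was at -2.21 (adjusted p = 0.19, edgeR) and -2.81 (adjusted p = 0.2), and none of the 10 genes was called.

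The other genes that fell most are parts of the L-type channel and of the kinase. Cacna1c, the pore of the channel, was at 132 to 161 CPM in KO_TAC, 203 to 284 in KO_sham and 197 to 284 in FF_TAC, with log2 fold changes of -0.70 and -0.66 against KO_sham and FF_TAC. Cacnb2, a subunit of the same channel, was at -0.80 against KO_sham, and its exons overlap others on the opposite strand. Camk2a was at -0.77 and -0.65 and Camk2b at -0.99 against FF_TAC, each a gene of the same kinase family as Camk2d, though against FF_TAC these calls held in only 2 (Camk2a) and 1 (Camk2b) of 16 fits that each left out 1 library. With the term for low haemoglobin transcripts, Cacna1c, Cacnb2 and Camk2a lost their calls against KO_sham, and Camk2a and Camk2b theirs against FF_TAC, where Cacna1c kept its call.

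Among the genes that rose, Bin1, which shapes the transverse tubules, was at 14.8, 30.4, 26.6 and 24.4 CPM in KO_TAC against 10.9 to 14.0 in KO_sham and 10.4 to 13.7 in FF_TAC, with log2 fold changes of 0.97 and 0.98. An exon of A830052D11Rik overlaps it on the opposite strand. Jsrp1, a protein of the junctional reticulum, rose by 1.57 and 1.23 from low levels (1.72 to 4.05 CPM in KO_TAC), and its call against FF_TAC held in 6 of 16 such fits. Prkar1a, a regulatory subunit of protein kinase A, rose by 0.75 and 0.55, the latter in 12 of 16 such fits. S100a1 and Sri, small calcium-binding proteins that act on the pump and the release channel, rose by 0.85 and 0.52 against KO_sham, but kept their calls in only 4 (S100a1) and 11 (Sri) of 16 fits that each left out 1 library, and lost them without the library labelled KO_sham 2. Pdia3, a chaperone of the reticulum, and Hax1, a partner of phospholamban, each rose by 0.46 against FF_TAC. With the haemoglobin term, Bin1, Prkar1a, S100a1 and Sri lost their calls against KO_sham, and Prkar1a and Hax1 theirs against FF_TAC, while Jsrp1 kept both calls and Bin1 and Pdia3 kept theirs against FF_TAC.

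**Figure D4:**
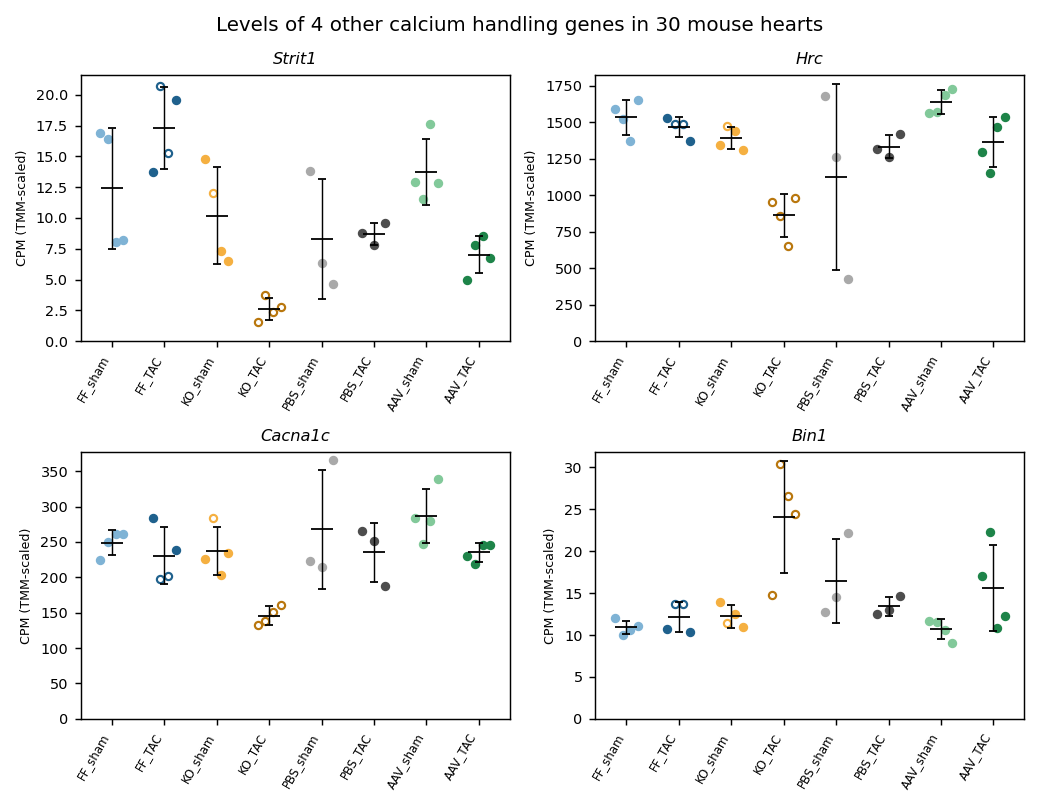
Levels (CPM, linear axes from 0) of Strit1, Hrc, Cacna1c and Bin1 in the 8 groups, with 1 point per heart, open points for the 7 haemoglobin-low libraries and black marks for the mean ± SD. The KO_TAC hearts lie below all others of the floxed cohort for Strit1 (1.58 to 3.75 CPM), Hrc (654 to 983 CPM) and Cacna1c (132 to 161 CPM), and above them for Bin1 (14.8 to 30.4 CPM).

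Other cell types moved with the same group, and early response genes with the haemoglobin-low libraries. In KO_TAC 5 fibroblast markers summed to 1540 to 1904 CPM, against 847 to 1223 in KO_sham and 868 to 984 in FF_TAC, and 3 of the 5 rose in each comparison. The 5 endothelial markers summed to 435 to 733 CPM, against 705 to 874 and 612 to 962, and 4 of 5 fell against KO_sham. These sums carry no TMM scaling. The overlap with KO_sham lay between KO_TAC 1 (733 CPM, TMM factor 1.13) and KO_sham 1 (705 CPM, factor 1.05). Scaling would lower the former by more, so this overlap may not hold on the scale of the gene levels. The 12 early response genes summed to 2150 to 6535 CPM in KO_TAC. In KO_sham they summed to 4385 CPM in the library labelled KO_sham 2 and to 254 to 285 in the others. In FF_TAC they summed to 3513 and 4861 CPM in FF_TAC 2 and 3, against 224 and 295 in FF_TAC 1 and 4. By edgeR 1 of the 12 was called against KO_sham and 0 against FF_TAC. The 5 macrophage markers summed to 225 to 273 CPM in KO_TAC, against 165 to 315 in KO_sham and 140 to 148 in FF_TAC, and 3 of 5 rose against FF_TAC. Of 4 smooth muscle markers, 0 were called in either comparison by edgeR. The 7 cardiomyocyte markers summed to 57464, 71734, 56648 and 54838 CPM in KO_TAC 1 to 4, against 62279 to 67187 in KO_sham and 62496 to 67518 in FF_TAC. KO_TAC 1, 3 and 4 thus lay below every heart of both groups and KO_TAC 2 above them, and 1 of 7 markers fell against KO_sham and 2 of 7 against FF_TAC. The part of these differences in the results above was not tested beyond the fits named here.

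With a term for low haemoglobin transcripts, 0 of the 10 genes were called in KO_TAC against KO_sham, although the log2 fold changes stayed near those above (Atp2a2 -0.86, adjusted p = 0.141; Pln -0.60, adjusted p = 0.0796; edgeR). In KO_TAC against FF_TAC Jph2 stayed called under that term. As every KO_TAC library is haemoglobin-low, the term cannot tell haemoglobin state from group there, and these fits do not settle the part of either. With KO_sham 2, FF_TAC 2 and FF_TAC 3 left out, Atp2a2 (-0.80, adjusted p = 0.0478, edgeR) and Pln (-0.71, adjusted p = 0.00346) stayed called against KO_sham, while Ryr2 (-0.46, adjusted p = 0.0612) and Casq2 (0.43, adjusted p = 0.0639) did not. Against FF_TAC, Atp2a2 (-0.99), Pln (-0.51), Jph2 (-0.54) and Ryr2 (-0.57, adjusted p = 0.0409, edgeR) were called without those 3 libraries.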

How the data were processed

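The deposited table holds raw counts per gene for 30 libraries, made by the authors with HISAT2 2.1.0 and featureCounts of Subread 1.5.1 on GRCm38, per the submitters' processing notes. The strand setting, annotation release and treatment of reads with several matches are not given in the sources used here. Per the labels, RNA was poly(A)-selected and the libraries stranded. Identifiers were named with GENCODE M21, and those without a symbol held 0.0034% of the counts. Each cohort was fitted apart with 1 mean per group by edgeR 4.0.16 (R 4.3.3; TMM, filterByExpr; glmQLFit and glmQLFTest), testing 15596 genes in the floxed and 15745 in the AAV9 cohort, with Benjamini-Hochberg adjustment and a threshold of 0.05. The fit was also run on simulated counts with known changes. These were drawn with the spreads estimated by the fit itself and held no outlying or haemoglobin-low library, so they do not bear on the effect of such libraries. The 10 genes and the lists were chosen with earlier results of these data known. All 10 genes were named, and of the other calcium genes the 5 largest rises and 5 largest falls among called genes with at least 1 CPM. Alternatives were DESeq2 1.42.0, RLE factors, library totals, no filter, a replicate block, a Myl7 covariate, haemoglobin splits and each library left out; leaving out 3 libraries by their Cpt1a level was added after seeing the data. Labels do not state litters or batches, so p-values measure the spread between these samples. Totals and floors of 3 counts reflect counting error only.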

Additional observations from a re-analysis of the deposited data

Results flagged for a closer look

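In 60 sets of 4 hearts (10 genes in 6 groups), 7 held a heart that stood apart from the other 3, where chance flags about 1 in 20 sets. For Sln these were FF_sham 2 at 297.5 CPM, FF_TAC 1 at 31.2, KO_TAC 1 at 1099, AAV_sham 2 at 298.3 and AAV_TAC 3 at 109.5 CPM, each the heart of its group with the most Myl7. Casq2 stood apart in FF_sham 1 at 944.9 CPM, against 824 to 833 in the other FF_sham hearts. Jph2 stood apart in AAV_sham 1 at 596.8 CPM, against 703 to 708 in the other AAV_sham hearts. With Sln set aside, such hearts were no more frequent than the chance rate of about 1 in 20 sets. The groups of 3 hearts, which include PBS_sham 3, were not examined in this way.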

How the results depend on the processing

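In KO_TAC against KO_sham the number of the 10 genes called went from 4 to 0 with a term for low haemoglobin, 0 in haemoglobin-low libraries alone, 2 with KO_sham 2, FF_TAC 2 and FF_TAC 3 left out, and 1 to 6 when 1 library was left out (1 without KO_TAC 3, where Pln alone stayed called). In KO_TAC against FF_TAC it went from 3 to 1 with the haemoglobin term, 0 in haemoglobin-low libraries alone, and 2 to 3 when 1 library was left out. In AAV_sham against PBS_sham it was 0 to 3 (3 without PBS_sham 1: Ryr2, Pln and Slc8a1). That fit left PBS_sham 3 (Pln at 378 CPM) beside PBS_sham 2 (1340 CPM) as the only controls, so its calls lean on PBS_sham 3. Pln kept its call in all fits that left out 1 library, and Jph2 likewise against FF_TAC.

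Directions turned for genes that were not called, and they are listed here for the KO_TAC comparisons only. In KO_TAC against KO_sham these were Sln (-4.24 with the replicate block, -0.33 with the Myl7 covariate, -9.95 to 3.07 with 1 library left out) and Camk2d (0.066 in haemoglobin-low libraries alone). In KO_TAC against FF_TAC they were Casq1 (0.10 with library totals, -0.69 to 0.28 with 1 library left out), Sln (-1.23 with the Myl7 covariate, -6.47 to 11.6 with 1 library left out) and Trdn (-0.11 to 0.50, the lowest without KO_TAC 2). Atp2a2 in KO_TAC against FF_TAC lost its call with library totals (-0.71, adjusted p = 0.0979, edgeR) and in 5 of 8 fits that left out 1 library of these groups. The cause was not tested.

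The labels state no pairing, and same-numbered libraries correlated at -0.41 to 0.45, so the numbers were not taken as pairs. With the replicate block 4 and 3 of the 10 genes were called in the KO_TAC comparisons, as without it, and 0 in the other 8. The haemoglobin-low fits compare 4 libraries with 1 or 2, and the lone KO_sham library is assumed to vary like the others. Levels under about 3 counts, as for Sln in 16 hearts, cannot be told from 0. Over all genes, calls by edgeR and by DESeq2 were 0 and 168 in FF_TAC against FF_sham and 1 and 117 in AAV_TAC against AAV_sham (111 by edgeR without PBS_sham 3). They went from 2 to 2821 in AAV_sham against PBS_sham without PBS_sham 1, where PBS_sham 2 and PBS_sham 3 were the only controls left. For the interaction of knockout and TAC they went from 7 to 825 with KO_sham 2, FF_TAC 2 and FF_TAC 3 left out.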
